A study of Mus musculus with 12 samples.

Results

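A set of 9 genes of leukocyte adhesion (Selp, Selplg, Cd44, Fut7, Gcnt1, Icam1, Icam2, Cd2 and Cd226) was followed across Treg with and without CD18. They were chosen by name, 9 of the 41457 genes listed in each library, and each was listed in all 12 libraries. Treg were sorted from spleen as CD4+ T cells with red fluorescence from a ROSA26 RFP reporter that Cre had switched on. In the mice called CD18Foxp3, both copies of the CD18 gene (Itgb2, the β2-integrin chain) carried loxP sites around 1 exon (CD18 fl/fl) and Cre was driven by Foxp3, so that CD18 was removed in Foxp3-expressing cells. The littermates called CD18wt had unmodified CD18 (CD18 wt/wt) and the same Foxp3Cre and RFP reporter. Both were on a mainly C57BL/6 background, and the age of these mice was not given in the sources used here. Sorted cells of each genotype were kept overnight in 5 U/mL IL-2 alone (unstimulated), or in IL-2 with agonistic antibodies, anti-CD3 at 1 μg/mL and anti-CD28 at 2 μg/mL (stimulated), which gave 4 groups of 3 libraries. The comparisons addressed which adhesion transcripts change when the T cell receptor is engaged, and whether Treg of CD18Foxp3 mice carry other levels of these transcripts. The study reports that such mice develop inflammation of the skin and of several organs, with enlarged spleens. The state of the mice sequenced is not given in the sources used here. In a genotype difference, loss of CD18 in the cell and an inflamed host cannot be told apart.

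P-selectin, encoded by Selp, is a lectin that activated platelets and endothelium display. It binds PSGL-1, the product of Selplg, once that protein has been decorated with branched sugars. Gcnt1 encodes the enzyme that opens the branch, Fut7 the fucosyltransferase that completes the sialyl Lewis x cap, and CD44 is both the receptor for hyaluronan and, when fucosylated, a ligand of E-selectin. ICAM-1 and ICAM-2 are the immunoglobulin-family counter-receptors of LFA-1, the integrin that is lost with CD18. CD2 and CD226 are immunoglobulin-family receptors. On partner cells CD2 binds CD48, and CD226 binds the nectin-like protein CD155 and the nectin CD112.

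The libraries held 10665174 to 19005482 exon reads. Itgb2 was at 428 ± 39.2 TPM (SD, n = 3) in CD18wt and 240.1 ± 15.0 TPM in CD18Foxp3 unstimulated Treg, and at 329.9 ± 1.16 and 172 ± 36.7 TPM after stimulation. TPM, a level scaled to transcript number, divides reads by exon length and sets every library to one total, so that levels of different genes can be compared. The log2 difference in Itgb2 between genotypes was -0.85 ± 0.09 (SE) unstimulated, with an adjusted p of 0.0041 by edgeR's quasi-likelihood test, and -0.94 ± 0.17 stimulated, with an adjusted p of 0.22. The counts were per gene and not per exon, so reads of the deleted exon were not measured apart, and the source of the remaining Itgb2 reads was not tested. At the protein level the study reports, by flow cytometry, deletion of CD18 in FOXP3+ cells of several organs and loss of its surface partner CD11a. Itgal, which encodes the partner chain of CD18 in LFA-1, was at 469 TPM in CD18wt and 407 TPM in CD18Foxp3 unstimulated Treg. After stimulation it was at 288 and 235 TPM. By the threshold given below, Itgb2 and Itgal fell with stimulation in each genotype, and Itgal was not called between genotypes. The 6 Treg markers, Foxp3, Cd4, Cd3e, Il2ra, Ikzf2 and Ctla4, had reads in every library, and of 5 activation genes Irf4, Tnfrsf9 and Myc rose with stimulation in both genotypes, Nr4a1 rose in CD18Foxp3 (log2 0.88) and had a value of 1.07 with an adjusted p of 0.071 by edgeR in CD18wt, and Batf passed in neither (log2 -0.46 in CD18wt and -0.11 in CD18Foxp3). CD18wt unstimulated replicate 3 had the fewest exon reads, and of the reads in its genes 3.32% lay in introns.

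The level of the 9 transcripts spanned more than 3 orders of magnitude in every group. Cd2 was the most abundant in each of the 4 groups, at mean values of 998 to 1112 TPM, and Selplg was second in each, at 226 to 394 TPM. Cd44, Icam1, Icam2 and Cd226 lay between 40.3 and 111 TPM. The enzymes Gcnt1 and Fut7 lay between 1.79 and 12.4 TPM. Selp was last in each group, at 0.117 to 0.926 TPM. Most neighbours in this order were separated in their libraries, and some were not. In CD18wt unstimulated Treg the libraries of Cd44 overlapped those of Icam2, and those of Icam2 overlapped those of Cd226. In CD18Foxp3 unstimulated Treg those of Icam1 overlapped those of Cd44 and of Cd226, and those of Gcnt1 overlapped those of Fut7. After stimulation the libraries of Icam1 and Cd226 overlapped in both genotypes, and those of Fut7 and Gcnt1 overlapped in CD18Foxp3 but not in CD18wt Treg.

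**Figure D1:**
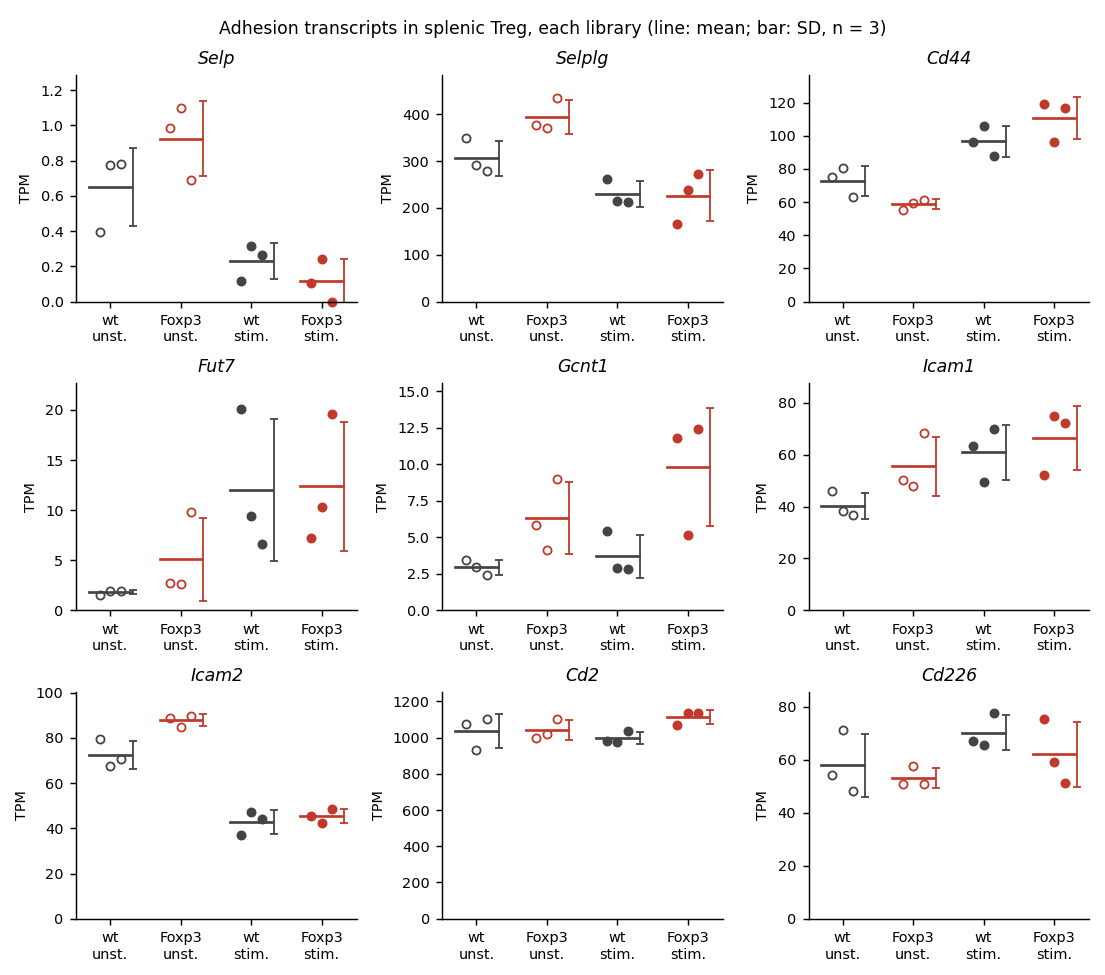
TPM of the 9 adhesion genes in each of the 12 libraries, by genotype and culture, on linear axes that start at 0. Open points are unstimulated and filled points stimulated libraries, with CD18wt in grey and CD18Foxp3 in red, horizontal lines are means and bars SD (n = 3), and the bar of Selp that would pass below 0 is cut there. Icam2 and Selplg sit lower in all stimulated than in all unstimulated libraries of the same genotype, Cd2 stays between 930 and 1135 TPM, and Fut7 of CD18Foxp3 unstimulated Treg has 1 library, replicate 3, at 9.83 TPM.

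Of the 9 genes, 5 had a promoter in the RefSeq table used here (GRCm38.p6). The 250 bases upstream of 1 listed start per gene are printed 5′ to 3′ in the direction of the gene. They are given for the selectin, for both sugar-building enzymes and for Icam1, since these are the transcripts of lowest level, of the largest fold changes and of the ligand of the deleted integrin. Fut7 and Gcnt1 had further listed starts, whose windows are not printed. Capitals mark matches on either strand to 4 of the 5 motifs searched, the NF-kB motif GGAANTTCC, the AP-1 motif TGANTCA, the T-box motif TCACACCT and the STAT motif TTCNNNGAA, where N is any base. The fifth, the NFAT core GGAAA, is not marked and was found in 55.6% of all promoter windows.
Selp, chr1:164115014-164115263, plus strand: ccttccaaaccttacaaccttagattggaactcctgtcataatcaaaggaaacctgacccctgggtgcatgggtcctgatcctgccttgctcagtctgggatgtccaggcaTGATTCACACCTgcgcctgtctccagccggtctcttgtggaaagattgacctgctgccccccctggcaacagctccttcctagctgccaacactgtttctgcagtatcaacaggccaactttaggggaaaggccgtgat
Fut7, chr2:25422992-25423241, plus strand: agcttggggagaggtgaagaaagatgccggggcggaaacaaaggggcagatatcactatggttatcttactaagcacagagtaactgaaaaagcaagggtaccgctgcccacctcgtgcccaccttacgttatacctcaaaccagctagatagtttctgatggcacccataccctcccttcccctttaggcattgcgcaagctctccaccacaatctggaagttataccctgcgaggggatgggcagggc
Gcnt1, chr19:17356668-17356917, minus strand: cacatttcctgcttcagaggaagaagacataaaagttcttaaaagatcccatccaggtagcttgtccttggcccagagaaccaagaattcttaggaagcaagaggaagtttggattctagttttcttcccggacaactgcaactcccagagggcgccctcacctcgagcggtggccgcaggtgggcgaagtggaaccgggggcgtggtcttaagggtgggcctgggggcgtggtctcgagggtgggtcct
Icam1, chr9:21015690-21015939, plus strand: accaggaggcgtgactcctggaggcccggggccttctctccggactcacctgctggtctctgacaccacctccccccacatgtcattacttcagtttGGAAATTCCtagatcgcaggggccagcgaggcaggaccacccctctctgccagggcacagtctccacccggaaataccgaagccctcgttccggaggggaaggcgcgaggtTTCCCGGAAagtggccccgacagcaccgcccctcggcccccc
The Icam1 window held 1 NF-kB match, which began 153 bases before the start, and 1 STAT match at 42 bases. The NF-kB letters occurred in 0.813% and the STAT letters in 7.02% of 32851 promoter windows of the same length. In the Selp window an AP-1 match at 139 bases, a motif present in 6.75% of windows, overlapped a T-box match at 135 bases, present in 1.12%. The Fut7 and Gcnt1 windows held none of the 4 marked motifs, and neither did the windows of their other listed starts. The NFAT core occurred 3 times in the Selp window, 1 time each in those printed for Fut7 and Gcnt1, and 4 times in that of Icam1, where NFAT letters overlap the marked matches. At the starts not printed it occurred 0 times for Fut7, and 1 and 2 times for Gcnt1. A match describes the sequence and does not show that a factor binds there.

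With stimulation the scaffold Selplg and the integrin ligand Icam2 fell in both genotypes. Fut7 was called higher in CD18wt Treg alone and Selp lower in CD18Foxp3 Treg alone, though neither response was shown to differ between genotypes. A gene was called changed when its fold was at least 1.5 and its adjusted p at most 0.01 in edgeR's quasi-likelihood test. By that rule 3 of the 9 genes were called in CD18wt Treg, where 33.6% of all 11930 tested genes were called, and 3 of 9 in CD18Foxp3 Treg, where 38.6% of 12019 were. Calls were thus about as common among the 9 as in the transcriptome. In CD18wt 1 of them rose and 2 fell, where 18.7% of all genes rose and 14.9% fell, and in CD18Foxp3 none rose and 3 fell, where 20.9% rose and 17.6% fell. In TPM 3 of the 9 lay wholly higher and 3 wholly lower after stimulation in CD18wt, where 47.9% and 13.9% of 11642 genes of at least 1 TPM on average did, and 1 wholly higher and 3 wholly lower in CD18Foxp3, where 47.8% and 18.9% did. The median log2 change over the 9 genes was -0.12 in CD18wt and -0.14 in CD18Foxp3, beside 0.02 and 0.01 over all tested genes. Scaling mattered for small changes. With library totals alone the median of all genes moved to 0.22 and 0.19, and on the TPM scale with a pseudocount of 1 to 0.36 and 0.31, and the changes below are relative to the main scaling.

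Selp had few reads in any library. Its exon reads were 11, 23 and 14 in CD18wt unstimulated Treg and 2, 8 and 6 in stimulated Treg, and 31, 28 and 19 in CD18Foxp3 unstimulated and 3, 6 and 0 in stimulated Treg. All stimulated libraries lay below all unstimulated ones of the same genotype. The log2 change of -3.27 ± 0.73 in CD18Foxp3 Treg passed the threshold, with an adjusted p of 0.0043 by edgeR, and that of -1.80 ± 0.74 in CD18wt Treg did not, with an adjusted p of 0.059. The call was lost without CD18Foxp3 unstimulated replicate 1, 2 or 3, with log2 changes of -3.23, -3.13 and -3.46 and adjusted p of 0.019, 0.019 and 0.011. It held without stimulated replicate 1, 2 or 3, where the log2 change was -3.24, -4.22 and -2.77. Of the Selp reads, 86.1% were placed uniquely. Its intron reads, which were not tested, summed to 13 unstimulated and 6 stimulated in CD18wt, and to 16 and 17 in CD18Foxp3 Treg. The study reports P-selectin expression as not detected in Treg. Platelets and endothelium are the classical sources of P-selectin. The 5 platelet markers Pf4, Itga2b, Gp1bb, Ppbp and Gp9 summed to at most 1.65 TPM in CD18wt unstimulated Treg and to at most 0.223 TPM in the other groups, where 4 of the 5 had no exon read. The 5 endothelial markers summed to at most 0.206 TPM unstimulated and to 2.69 to 5.25 TPM stimulated, chiefly from Egfl7, while Cldn5 had no exon read in any library. The other selectin listed, Sele, had at most 8 reads in a library and was not tested.

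Selplg was the most abundant of the ligand genes among the 9. It measured 348, 292 and 278 TPM in CD18wt unstimulated Treg and 261, 214 and 212 TPM after stimulation. In CD18Foxp3 Treg it measured 377, 369.7 and 435 TPM unstimulated and 166, 239 and 273 TPM stimulated. No stimulated library reached an unstimulated one of its genotype. The fall was 1.76-fold in CD18wt (log2 -0.82 ± 0.14, adjusted p = 0.00037 by edgeR) and 2.25-fold in CD18Foxp3 (log2 -1.17 ± 0.16, adjusted p = 0.00028). Both calls were kept when any single library was left out, with ranges of -0.91 to -0.74 and -1.34 to -1.02. On the TPM scale with limma the change in CD18wt was -0.42 with an adjusted p of 0.021, past neither threshold.

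Cd44 gave another picture. Its level was 75.0, 80.8 and 62.8 TPM in CD18wt unstimulated and 96.0, 106 and 87.8 TPM in stimulated Treg, and 55.3, 59.8 and 61.4 TPM in CD18Foxp3 unstimulated and 119, 96.4 and 117 TPM in stimulated Treg. In TPM the stimulated libraries lay above the unstimulated ones in both genotypes. With edgeR the log2 change in CD18wt was 0.02 ± 0.14 with an adjusted p of 0.93, and its sign turned with the size factors of DESeq2 and with upper-quartile scaling. In CD18Foxp3 it was 0.55 ± 0.12 with an adjusted p of 0.0043 at 1.47-fold, which was below the fold required. It passed under library totals alone, at 0.73, and on the TPM scale with a pseudocount of 1, at 0.90. The test of the difference between genotypes in the response gave a log2 value of 0.53 ± 0.20, with an unadjusted p of 0.015 and an adjusted p of 0.99 by edgeR.

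Fut7 rose 5.04-fold with stimulation in CD18wt Treg. The 3 unstimulated libraries held 1.54, 1.95 and 1.88 TPM and the stimulated ones 20.1, 9.40 and 6.59 TPM, with no overlap (log2 2.33 ± 0.44, adjusted p = 0.00068 by edgeR, 1.79 to 2.63 when any library was left out). CD18Foxp3 Treg held 2.74, 2.65 and 9.83 TPM unstimulated and 7.24, 10.3 and 19.6 TPM stimulated. There the groups overlapped through the single unstimulated replicate 3. The log2 change was 0.93 ± 0.53 with an adjusted p of 0.17, and 1.80 with an adjusted p of 0.011 without that library, while it was 0.42 without stimulated replicate 3. In CD18Foxp3 it passed by edgeR without a filter on low counts, at 0.94 with an adjusted p of 0.0029. It also passed with same-numbered libraries taken as blocks, at 1.06 with an adjusted p of 0.0045, though no label ties a number to a mouse. The other 10 of 12 alternative settings left it uncalled. The 2 responses were not shown to differ, since the interaction was -1.40 ± 0.77 with an unadjusted p of 0.089 and an adjusted p of 0.99 by edgeR.

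Gcnt1 did not pass the test with stimulation. It lay at 3.45, 2.96 and 2.39 TPM in CD18wt unstimulated and 5.40, 2.88 and 2.82 TPM in stimulated Treg, with overlapping libraries. In CD18Foxp3 Treg it lay at 5.84, 4.11 and 8.97 TPM unstimulated and at 11.8, 5.17 and 12.4 TPM stimulated, again overlapping. The log2 changes were -0.08 ± 0.32 and 0.29 ± 0.36 with adjusted p of 0.86 and 0.52 by edgeR, the first of which turned positive with library totals alone and on the TPM scale.

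Icam1 and Icam2 bind the same integrin. Icam2 fell in both genotypes and Icam1 passed the test in neither. Icam2 measured 79.3, 67.4 and 70.6 TPM in CD18wt unstimulated Treg and 37.1, 47.4 and 44.3 TPM in stimulated Treg. In CD18Foxp3 Treg it measured 89.1, 84.8 and 89.6 TPM unstimulated and 45.3, 42.3 and 48.4 TPM stimulated. The groups did not overlap in either genotype. The fall was 2.21-fold in CD18wt (log2 -1.15 ± 0.16, adjusted p = 8.3e-05 by edgeR) and 2.49-fold in CD18Foxp3 (log2 -1.32 ± 0.11, adjusted p = 1.7e-05), and both calls held under every setting tried and with any library left out.

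Icam1, which is known to be induced by inflammatory signals, measured 46.0, 38.2 and 36.8 TPM in CD18wt unstimulated and 63.2, 49.5 and 70.1 TPM in stimulated Treg, without overlap. In CD18Foxp3 Treg it measured 50.1, 48.0 and 68.4 TPM unstimulated and 52.3, 75.1 and 72.3 TPM stimulated, with overlap through unstimulated replicate 3. The log2 changes were 0.19 ± 0.14 and -0.10 ± 0.16, with adjusted p of 0.28 and 0.62 by edgeR, and the second turned positive with library totals alone and on the TPM scale. Of the Icam1 reads, 83.3% were placed uniquely, and 1.81% of the 59-base words of its transcripts also occurred in transcripts of other genes.

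Cd2 and Cd226 had the narrowest relative range of group means among the 9 in TPM. Cd2 read 1075, 930.1 and 1102 TPM in CD18wt unstimulated, 983, 976 and 1036 TPM in CD18wt stimulated, 999, 1018 and 1102 TPM in CD18Foxp3 unstimulated and 1069, 1135 and 1133 TPM in CD18Foxp3 stimulated Treg. Its log2 changes with stimulation were -0.46 ± 0.14 and -0.27 ± 0.09, with adjusted p of 0.017 and 0.032 by edgeR, and the second turned positive on the TPM scale. Cd226 lay at 48.2 to 71.3 TPM in CD18wt unstimulated, 65.8 to 77.8 TPM in CD18wt stimulated, 50.8 to 57.6 TPM in CD18Foxp3 unstimulated and 51.4 to 75.6 TPM in CD18Foxp3 stimulated Treg, with overlap between cultures in both genotypes. Its log2 changes of -0.12 ± 0.15 and -0.14 ± 0.16 had adjusted p of 0.54 and 0.50, and both turned positive with library totals alone and on the TPM scale.

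**Figure D2:**
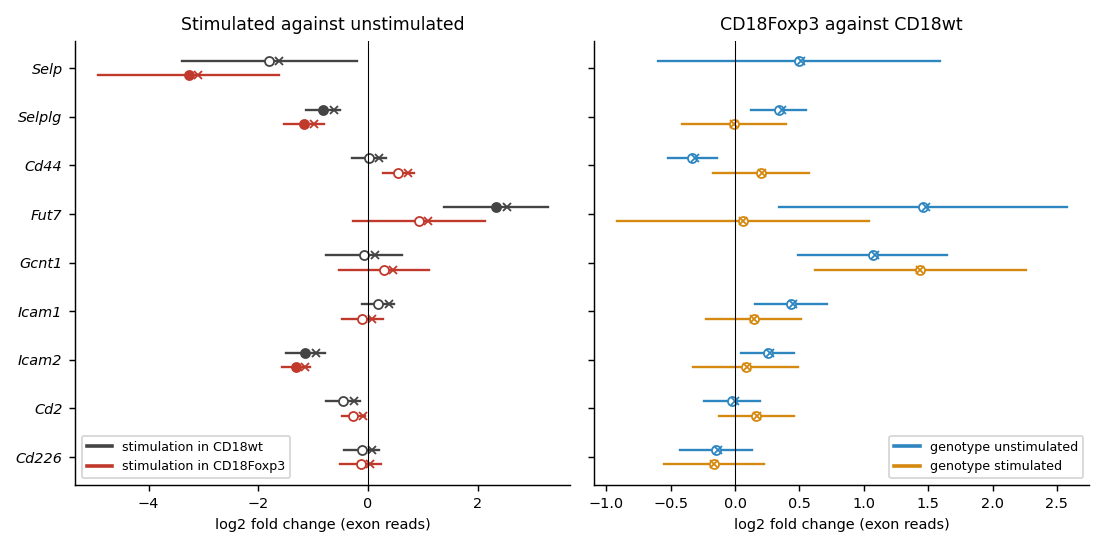
Log2 fold changes of the 9 genes from edgeR with 95% intervals, for stimulation in each genotype (left) and for CD18Foxp3 against CD18wt in each culture (right), where filled points passed the threshold and crosses give the value with library totals alone. Selplg and Icam2 lie below 0 with stimulation in both genotypes, at -0.82 to -1.32, and no gene on the right is filled. Selp was not tested between genotypes after stimulation because of its low counts.

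Ratios of 2 transcripts within a library do not depend on how libraries are scaled. These ratios were chosen after the values had been seen. The ratio of Icam1 to Icam2 TPM was 0.580, 0.566 and 0.521 in CD18wt unstimulated and 1.71, 1.04 and 1.58 in CD18wt stimulated Treg, and 0.562, 0.566 and 0.763 in CD18Foxp3 unstimulated and 1.16, 1.77 and 1.49 in CD18Foxp3 stimulated Treg. In all 6 unstimulated libraries Icam2 exceeded Icam1, and in all 6 stimulated libraries Icam1 exceeded Icam2. The exact two-sided permutation test gave p = 0.1 in each genotype, the smallest that 3 against 3 libraries can give. The ratio of Cd44 to Selplg went from 0.240 ± 0.033 (SD, n = 3) to 0.426 ± 0.064 in CD18wt and from 0.150 ± 0.011 to 0.517 ± 0.17 in CD18Foxp3 Treg, without overlap in either genotype. The ratio of Fut7 to Gcnt1 went from 0.632 ± 0.17 to 3.10 ± 0.70 in CD18wt, without overlap, and from 0.737 ± 0.32 to 1.39 ± 0.71 in CD18Foxp3, with overlap. After stimulation all 3 CD18wt libraries exceeded all 3 CD18Foxp3 libraries in this ratio (exact permutation p = 0.1).

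**Figure D3:**
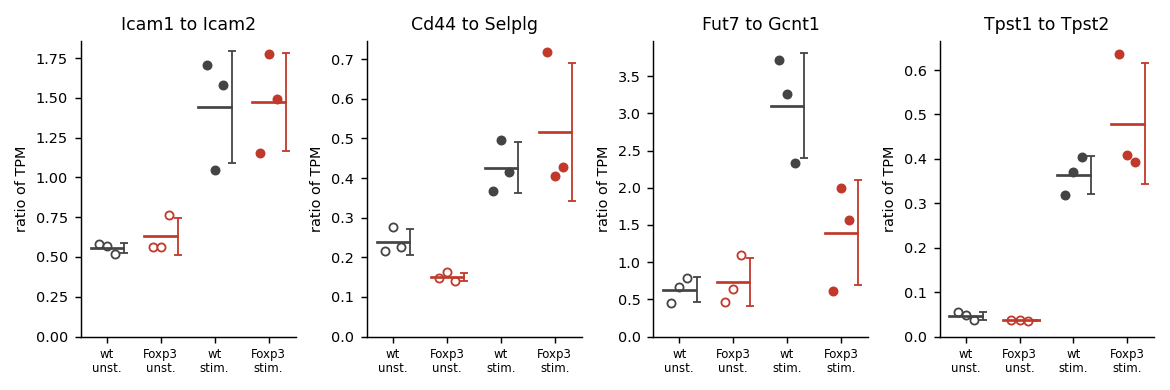
Ratio of TPM of 2 genes within each library, by genotype (grey CD18wt, red CD18Foxp3) and culture (open unstimulated, filled stimulated), with means as lines and SD as bars (n = 3). Icam1 to Icam2 lies between 0.521 and 0.763 in unstimulated and between 1.04 and 1.77 in stimulated libraries, and Tpst1 to Tpst2 has means of 0.0465 and 0.0364 unstimulated and of 0.364 and 0.479 stimulated.

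The other genes of sugar and sulfate addition to selectin ligands changed in both directions. Of the 16 genes in that list, Fut7 and Gcnt1 included, 15 were tested, of which 2 rose and 2 fell in CD18wt and 3 rose and 3 fell in CD18Foxp3 Treg, with medians of -0.08 in each. Of all tested genes 18.7% rose and 14.9% fell in CD18wt and 20.9% and 17.6% in CD18Foxp3. Tpst1 and Tpst2 encode the enzymes that sulfate the tyrosines of PSGL-1. Tpst1 rose from 4.0 to 24.6 TPM in CD18wt and from 3.98 to 22.7 TPM in CD18Foxp3 Treg (log2 2.21 and 2.14). Tpst2, named here after its values were seen, fell from 84.8 to 67.8 TPM and from 109.8 to 49.6 TPM (log2 -0.72 and -1.51), so that it remained the more abundant of the pair. Fut4, a second fucosyltransferase, went from 0.187 to 1.58 TPM in CD18wt (log2 2.60, adjusted p = 0.017 by edgeR) and rose from 0.0772 to 2.00 TPM in CD18Foxp3 Treg (log2 4.26). St3gal1, a sialyltransferase that can cap the same O-glycan core before it is branched, fell in both genotypes, by 0.97 and 0.72 on the log2 scale. B4galt1, the most abundant of the list at a mean of 92.9 TPM over the 12 libraries, had log2 changes of -0.50 and -0.64, of which the second passed. None of these genes was called between genotypes.

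**Figure D4:**
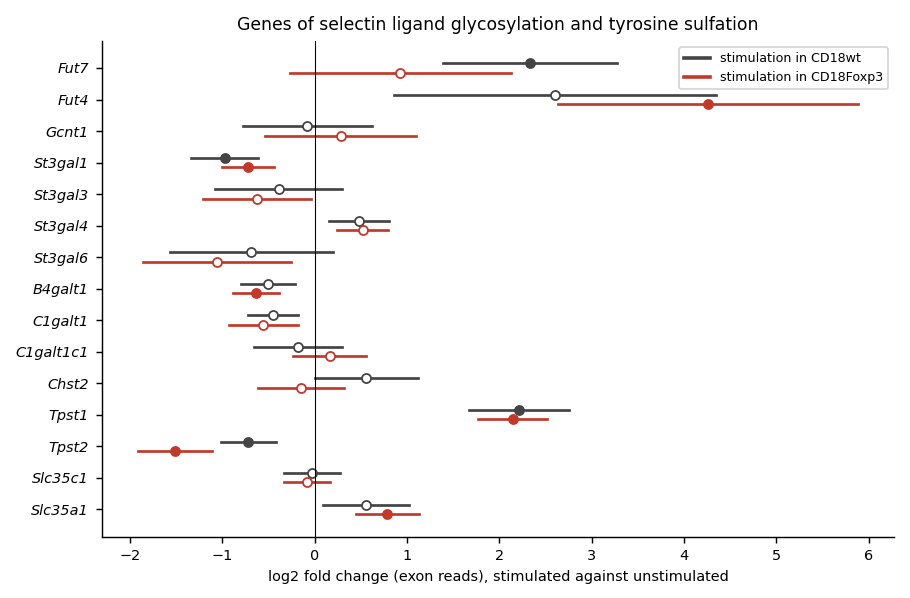
Log2 fold changes with stimulation (edgeR, exon reads, with 95% intervals) of the 15 tested genes that build or sulfate selectin ligands, for CD18wt in grey and CD18Foxp3 in red, where filled points passed the threshold. Tpst1 lies at 2.21 and 2.14, Tpst2 and St3gal1 lie below 0, and the intervals of Fut4 are the widest.

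Among the 10 listed protein scaffolds that can carry selectin ligands, 5 were tested. Spn, the sialomucin CD43 and at 335 TPM the most abundant of them, had log2 changes of -0.52 in CD18wt and -0.81 in CD18Foxp3 Treg, of which the second passed. Cd24a, a small mucin-like ligand of P-selectin, rose by 2.73 and 1.53 from low levels, with a mean of 3.09 TPM over the 12 libraries. Glg1, the E-selectin ligand ESL-1, had values of -0.72 and -0.58, of which the first passed. In the list for hyaluronan, the ligand of CD44, 4 of 8 genes were tested in CD18wt and 5 in CD18Foxp3. Hmmr, a hyaluronan-binding protein that also serves cell division, rose by 3.38 and 3.16, and Hyal2, a hyaluronidase, rose by 1.66 and 1.49. The synthases Has1 and Has2 had no exon read.

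Of 15 ICAM and other immunoglobulin-family adhesion genes, 9 were tested, of which 1 rose and 3 fell in CD18wt and 1 rose and 4 fell in CD18Foxp3 Treg, where 18.7% of all tested genes rose and 14.9% fell in CD18wt and 20.9% and 17.6% in CD18Foxp3. The median log2 change of the list was -0.78 and -0.86. Alcam, the ligand of CD6, rose from 8.83 to 45.7 TPM in CD18wt and from 9.30 to 51.5 TPM in CD18Foxp3 Treg (log2 1.98 and 2.11). Pecam1, a junctional molecule of endothelium and leukocytes, fell from 49.9 to 19.3 TPM and from 52.8 to 21.6 TPM (log2 -1.79 and -1.66). Thy1, the most abundant of the list at a mean of 454.8 TPM, fell by 0.78 and 0.86 on the log2 scale, and L1cam had values of -0.95 and -1.19, of which the second passed.

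In the list of CD2 relatives and CD2-binding proteins 10 of 11 genes were tested, and 4 fell in each genotype while none rose, where 14.9% of all tested genes fell and 18.7% rose in CD18wt and 17.6% and 20.9% in CD18Foxp3. They were the SLAM-family receptors Slamf6 (log2 -1.41 in both genotypes), Cd84 (-1.12 and -1.03) and Ly9 (-0.999 and -1.04), and Pstpip1, an adaptor that binds the tail of CD2 (-1.03 and -1.52). Cd2 itself was the most abundant gene of this list and was not called. In the list around CD226, which shares its ligands with TIGIT and CD96, 8 of 11 genes were tested and 2 fell in each genotype, beside the same 14.9% and 17.6% of all tested genes. Cd96 fell from 229.6 to 72.2 TPM in CD18wt and from 258 to 101 TPM in CD18Foxp3 Treg (log2 -2.08 and -1.71), and Pvrig fell by 2.36 and 1.66 on the log2 scale. Tigit, the most abundant of the list at a mean of 758 TPM, had log2 changes of 0.04 and 0.02 with adjusted p of 0.86 and 0.92 by edgeR.

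Reads in introns, which come in part from transcripts not yet spliced, were compared in the same way and scaled among themselves. In CD18wt Treg 6 of the 9 genes were tested and 1 was called, where 7.8% of 9492 genes were called. In CD18Foxp3 Treg 7 were tested and 2 were called, where 30.4% of 10260 were. Cd226 fell in both, by 1.17 ± 0.29 and 1.11 ± 0.18 on the log2 scale (adjusted p = 0.0091 and 8.5e-07 by edgeR), while its exon reads had log2 changes of -0.12 and -0.14. Introns held 40.4% of the reads of Cd226 in CD18wt unstimulated and 29.3% in stimulated Treg, and 37.2% and 28.0% in CD18Foxp3 Treg. Icam2 fell in introns by 1.0 ± 0.29 in CD18Foxp3 Treg (adjusted p = 0.0043) and had a value of -1.28 ± 0.41 in CD18wt (adjusted p = 0.037), near its exon values. Selplg, whose exon reads fell, had intron changes of -0.17 ± 0.32 and 0.16 ± 0.21, with adjusted p of 0.76 and 0.59. Icam1 had intron changes of 1.39 ± 0.40 in CD18wt and 0.56 ± 0.27 in CD18Foxp3, with adjusted p of 0.023 and 0.094, and Cd44 had -0.98 ± 0.34 and -0.48 ± 0.18, with adjusted p of 0.051 and 0.027.

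The calls on introns differed in firmness. That of Cd226 in CD18Foxp3 Treg held with any library left out, at log2 values of -1.29 to -0.995. The adjusted p was 1.3e-07 to 5.3e-05 by edgeR in these fits. It also held under the alternative settings for introns, at -1.11 to -0.75. The Cd226 call in CD18wt Treg was kept only without unstimulated replicate 3, the library of the lowest intron share, with an adjusted p of 0.0044. It was lost when any one of the other 5 libraries was left out, with log2 values of -1.26 to -1.05 and adjusted p of 0.021 to 0.073, and also when introns were scaled by the exon totals, at -0.78. The Icam2 call in CD18Foxp3 Treg was lost without replicate 1 or 3 of either culture, with adjusted p of 0.012 to 0.018, and with exon totals, at -0.64. With exon totals Icam1 passed in CD18Foxp3, at 0.92 with an adjusted p of 0.0076. The difference between exon and intron changes was not tested.

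**Figure D5:**
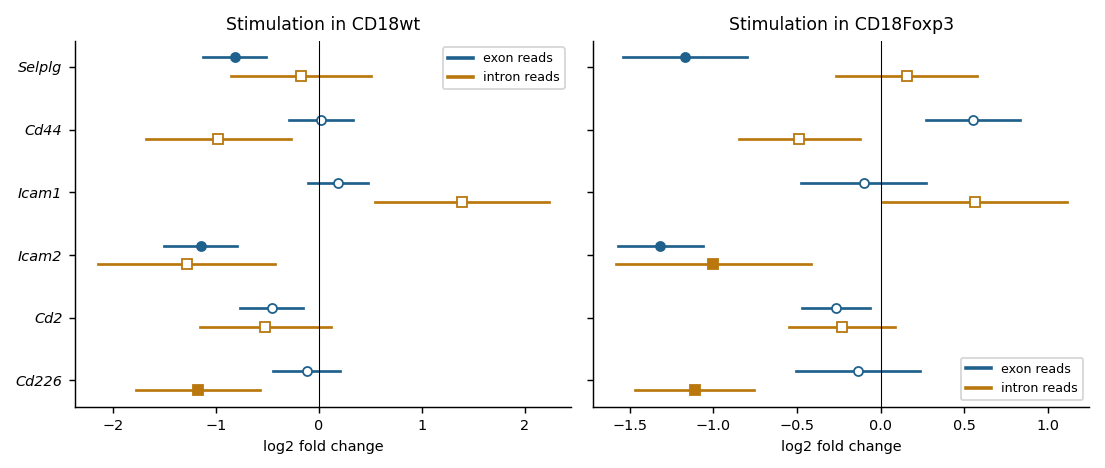
Log2 fold changes with stimulation for exon reads (circles) and intron reads (squares) of the 6 genes tested on both in both genotypes, with 95% intervals and filled symbols where the threshold was passed. For Cd226 the intron value lies at -1.17 in CD18wt and -1.11 in CD18Foxp3 while the exon value is near 0, and for Selplg the exon value lies at -0.82 and -1.17 while the intron interval spans 0.

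Between genotypes no gene among the 9 passed the test in either culture. In unstimulated Treg 0.135% of 11829 genes were called and in stimulated Treg 0% of 11930 by edgeR's quasi-likelihood test, where 583 had an unadjusted p under 0.05, DESeq2 called 22 and edgeR's likelihood ratio test 16. The 2 comparisons may draw on the same mice, since replicate numbers recur across cultures, and both share their libraries with the stimulation comparisons. Unstimulated CD18Foxp3 Treg nevertheless differed in range from CD18wt Treg for 6 of the 9 genes in TPM. Selplg, Fut7, Gcnt1, Icam1 and Icam2 lay higher in all 3 CD18Foxp3 libraries and Cd44 lay lower, where 8.59% of all genes lay wholly higher and 6.52% wholly lower. These 6 also had an unadjusted p under 0.05 in edgeR, as had 9.59% of all tested genes. The 9 genes were picked with results of these data known, and the adjusted p over all genes was 0.14 to 0.38 for the 6. The part of host inflammation in these differences was not tested.

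By size the genotype differences in unstimulated Treg were largest for the enzymes. Fut7 was 2.75-fold higher in CD18Foxp3 Treg (log2 1.46 ± 0.51, adjusted p = 0.35 by edgeR), and the value was 0.59 without CD18Foxp3 replicate 3. Gcnt1 was 2.10-fold higher (log2 1.07 ± 0.26, adjusted p = 0.14), with 0.76 to 1.29 when any library was left out. Icam1 had a log2 difference of 0.43 ± 0.13, Selplg of 0.34 ± 0.10, Icam2 of 0.25 ± 0.09 and Cd44 of -0.33 ± 0.09, with adjusted p of 0.24, 0.22, 0.38 and 0.17. Selp, Cd2 and Cd226 overlapped between genotypes, with log2 differences of 0.50 ± 0.50, -0.02 ± 0.10 and -0.15 ± 0.13.

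After stimulation the genotype differences of Selplg, Fut7, Icam1 and Icam2 were -0.01 ± 0.19, 0.06 ± 0.45, 0.15 ± 0.17 and 0.08 ± 0.19 on the log2 scale, and their libraries overlapped. Cd44 stood at 0.20 ± 0.17 and Cd226 at -0.16 ± 0.18. Cd2, at 0.17 ± 0.13, was the single gene of the 9 whose TPM did not overlap, higher in CD18Foxp3, where 4.84% of all genes lay wholly higher and 4.39% wholly lower. Gcnt1 kept its difference in size, at 2.71-fold (log2 1.44 ± 0.37, 95% interval 0.62 to 2.26), with an unadjusted p of 0.0025 and an adjusted p of 0.60 by edgeR, although CD18Foxp3 replicate 2, at 5.17 TPM, lay below CD18wt replicate 1, at 5.40 TPM. Without a filter on low counts Gcnt1 was called by edgeR in both cultures, at 1.07 with an adjusted p of 0.00028 and at 1.45 with an adjusted p of 0.00013. That setting raised the number of all genes called from 16 to 134 unstimulated and from 0 to 61 stimulated. The other 11 of 12 alternative settings did not call Gcnt1 in either culture. The response to stimulation was not shown to differ between genotypes for any of the 9, with adjusted p of at least 0.99 in a fit where 0% of 12636 genes were called by edgeR's quasi-likelihood test, 485 had an unadjusted p under 0.05, DESeq2 called 1 and the likelihood ratio test 6.

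Markers of other cells moved with some of these groups. The 4 B cell markers, chiefly Cd79b, summed to 22.6 to 30.4 TPM in unstimulated and to 8.75 to 19.8 TPM in stimulated libraries, and the 4 cytotoxic lymphocyte markers, chiefly Cd8b1, to 25.3 to 35.7 and 12.6 to 25.8 TPM, with Ncr1 at no exon read. The 5 myeloid markers summed to 4.81 to 16.3 TPM in CD18wt unstimulated, 1.19 to 7.14 TPM in CD18Foxp3 unstimulated and at most 2.15 TPM in stimulated libraries. The 5 erythroid markers summed to 1.21 to 10.2 TPM in CD18wt and 5.53 to 57.6 TPM in CD18Foxp3 unstimulated libraries, and the 3 plasma cell markers to at most 5.56 TPM in any. Their part in the changes of the adhesion genes was not tested. In sorted bulk cells fewer cells of a kind and less RNA per cell cannot be told apart.

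Across the 12 libraries, the genes with the most similar pattern were sought among 10267 genes with at least 10 reads in every library, by Pearson's r of log2 CPM, the depth-scaled read count. For Gcnt1 they were Il18rap (r = 0.92) and Gpr15 (0.91), a subunit of the IL-18 receptor and a homing receptor of T cells. For Selplg they were Grb2 (0.99) and Ppp1r18 (0.98), for Icam2 Cd3e (0.98) and Rpl9 (0.98), and for Cd2 Snap47 (0.97) and Trip4 (0.96). For Fut7 they were Tm2d2 (0.93) and Agpat4 (0.93), for Cd44 Ryk (0.91) and Mapre2 (0.91), for Cd226 Mef2a (0.88) and Dmxl1 (0.84), and for Icam1 Pigo (0.84) and Myo1g (0.81). The 12 libraries fall into 4 groups that share genotype and culture, so these values describe these libraries. Selp had too few reads for this search.

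The 9 genes lie on 8 chromosomes of GRCm38, and the reads counted are those of their annotated exons or introns. Selp spans chr1:164115264-164150026 on the plus strand and Selplg chr5:113818536-113832644 on the minus strand. Cd44 spans chr2:102811141-102901665 on the minus strand and Fut7 chr2:25423267-25426374 on the plus strand. Gcnt1 spans chr19:17326141-17356667 on the minus strand, Icam1 chr9:21015985-21028817 on the plus strand and Icam2 chr11:106377656-106388075 on the minus strand. Cd2 spans chr3:101275899-101287939 on the minus strand and Cd226 chr18:89197431-89270201 on the plus strand. The annotation places another gene within the span of Selp, Cd44 and Icam1, and of these overlapping genes the highest count was 16 reads in a library, in Gm47079 at Icam1. Strand was not stated for the counting.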

How the data were processed

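Splenic Treg RNA was measured in 12 libraries, 3 per group, grouped by the sample labels. Poly(A) libraries were amplified with 15 PCR cycles, and 59-base single reads were mapped to GRCm38. The authors trimmed, mapped and counted reads in CLC Genomics Workbench and deposited counts of total exon, intron and gene reads per gene, without normalization. The deposited TPM values were read with a decimal comma. RPKM and the uniquely placed intron and gene reads were not used.

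Exon counts of the libraries of each comparison were fitted in edgeR 4.0.16 (R 4.3.3) with filterByExpr at a minimum count of 10, TMM scaling and the robust quasi-likelihood test, and p-values were adjusted by the Benjamini-Hochberg method over all genes tested. The interaction used all 12 libraries. The thresholds for fold (1.5) and adjusted p (0.01) follow the study. SE are of the log2 change. Single values were compared by the exact two-sided permutation test. Alternatives used DESeq2 1.42.0, limma 3.58.1 on log2 TPM with a pseudocount of 1 or 0.1, other scalings and filters, and leaving out each library. The fits were also run on simulated counts of independent libraries, which cannot show how they behave if libraries share a mouse. Scaling by library totals was added after seeing the data.

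The genes and lists were chosen with earlier results of these data known. Named genes were the 9, the most abundant gene of each list, up to 4 called list genes by size in CD18wt, any list gene called between genotypes, Itgb2 and Itgal. Replicates of a group differed by a chi-square of 6.11 to 64.3 per gene, where counting error gives about 1, so no library was a copy of another. CD18Foxp3 stimulated replicate 1 stood furthest apart, at 58.9 and 64.3 from replicates 2 and 3, which differed by 11.9. CD18wt unstimulated replicate 3 lay at 41.3 and 39.8 from replicates 1 and 2, which differed by 12.0. The labels call replicates biological and the study plots them as individual mice, and whether a mouse gave cells to both cultures is not given in the sources used here. The depth limits Selp and Fut7 most, with 151 and 1166 exon reads over all libraries.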

Additional observations from a re-analysis of the deposited data

How the results depend on the processing

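Over the settings tried, the calls of Fut7, Icam2 and Selplg in CD18wt and of Icam2 and Selplg in CD18Foxp3 Treg held, except that of Selplg in CD18wt on the TPM scale. Apart from the fits with a library left out, given below, signs turned for small changes only. With stimulation in CD18wt, Cd44 was at -0.00597 with DESeq2, at -0.00588 with its size factors in edgeR and at -0.0659 with upper-quartile scaling, Gcnt1 at 0.22 and 0.275 on log2(TPM + 1) and log2(TPM + 0.1) and 0.12 with library totals, and Cd226 at 0.29, 0.29 and 0.0694. In CD18Foxp3, under the same 3 settings, Icam1 was at 0.26, 0.26 and 0.0738 and Cd226 at 0.21, 0.21 and 0.040, while Cd2 was at 0.10 on either TPM scale. Between genotypes Cd2 unstimulated was at 0.00771 and 0.00772 on the TPM scales, and Selplg stimulated at 0.0109 with upper-quartile scaling. In introns Selplg in CD18wt was at 0.17 and Cd2 in CD18Foxp3 at 0.12 with exon totals.

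The count of genes called between genotypes unstimulated was 16, and 33 at an adjusted p of 0.05, 86 with DESeq2, 86 with the likelihood ratio test, 134 without a filter, 1 and 2 with limma on log2(TPM + 1) and log2(TPM + 0.1), and 0 in a fit of all 12 libraries. Stimulated, it was 0, and 22, 16, 61 and 1 with DESeq2, the likelihood ratio test, no filter and log2(TPM + 0.1), and for the interaction 0, and 1, 6, 31, 1 and 1 with these and log2(TPM + 1). Without a filter 1 of the 9 genes, Gcnt1, was called between genotypes in each culture, and Fut7 passed with stimulation in CD18Foxp3, at 0.94. Of the genes called with stimulation, 55.7% in CD18wt and 54.3% in CD18Foxp3 were higher, 70.4% and 66.5% with library totals, and 80.9% and 75.9% on log2(TPM + 1). With exon totals 0 of the 9 were called on introns in CD18wt.

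Same-numbered libraries correlated across cultures at -0.095 to 0.096 in CD18wt, where differently numbered ones gave -0.117 to 0.110. In CD18Foxp3 they correlated at 0.070 to 0.147, beside -0.124 to -0.021, and all 3 correlated best with their own number. The labels do not tie a number to a mouse, so whether same-numbered samples share a mouse is not known. The main stimulation tests treated them as unpaired. With the replicate block 41 genes were called between genotypes unstimulated, 1 stimulated, and 0 of the 9 on introns in CD18wt, Fut7 in CD18Foxp3 passed at 1.06 with an adjusted p of 0.0045, and Gcnt1 in introns of CD18Foxp3 was at -0.00793.

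With any library left out, genes called numbered 3251 to 3843 (CD18wt stimulation), 3591 to 4889 (CD18Foxp3 stimulation), 0 to 44 (genotype, unstimulated, 44 without CD18wt replicate 3), 0 to 2 (genotype, stimulated, 2 without CD18wt replicate 3) and 0 to 0 (interaction). Of the 9, 3 to 3, 2 to 4, 0 to 0, 0 to 0 and 0 to 0 were called in the same order, and on introns 0 to 1 and 1 to 2. The log2 values that changed sign ranged, for stimulation in CD18wt, from -0.15 to 0.11 for Cd44, -0.42 to 0.0943 for Gcnt1 and -0.20 to 0.0304 for Cd226, for Icam1 in CD18Foxp3 from -0.19 to 0.0512, between genotypes unstimulated from -0.11 to 0.0616 for Cd2 and -0.23 to 0.010 for Cd226, stimulated from -0.18 to 0.16 for Selplg, -0.44 to 0.60 for Fut7 and -0.0240 to 0.23 for Icam2, for the interaction from -0.21 to 0.0895 for Cd226, and on introns from -0.56 to 0.46 for Gcnt1 in CD18Foxp3. Leaving 2 libraries in a group rests on the spread of the other group. The causes of these changes were not tested.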
